A study of Mus musculus with 2 samples.

Results

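The genes described here encode the proteasome and 3 families of enzymes that act on ubiquitin: the E2 conjugating enzymes (Ube2), the ubiquitin-specific proteases (Usp) and the F-box proteins (Fbx). They were chosen by symbol, as genes named Psma to Psmg with a digit, Ube2, Usp with a digit, or Fbx, without the immunoproteasome genes Psmb8 and Psmb10. Of 7409 genes with a named probe, 91 fit this rule, on 118 probes. The RefSeq table for GRCm38.p6 lists 220 protein-coding genes with such symbols, so most of the pathway was not analysed here. A transcript was taken as detected at a detection score of 0.99 or more on either array, which held for 50 of the 91 genes and for 3005 named genes in all.

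The cells were embryonic fibroblasts of the NMRI mouse stock, measured on Illumina bead arrays. All had been stopped from dividing with mitomycin C, a DNA crosslinker, plated on gelatine at 55000 cells per square centimetre, and moved a day later for 24 h to a medium with serum replacement, of the kind used for human embryonic stem cells. The treated culture received FGF2 (fibroblast growth factor 2) at 40 ng/ml, and the control culture received none. Each group had 1 culture on 1 array, so no difference below has a replicate check, and FGF2 cannot be told apart from any other difference between the 2 cultures.

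Proteins marked with ubiquitin chains are degraded by the 26S proteasome. Its 20S core is a barrel of alpha and beta rings with the cutting sites inside, and its 19S cap holds an ATPase ring that unfolds substrates and non-ATPase subunits that receive them. The PA28 activator can replace the cap and is known to be induced by interferon together with the immunoproteasome. Ubiquitin is activated by an E1 enzyme, passed to an E2 and transferred to the substrate by an E3 ligase, and deubiquitinating enzymes such as the Usp proteases remove it. F-box proteins choose the substrates of SCF ligases, in which a cullin must carry NEDD8, a ubiquitin-like protein, to be active.

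On the whole arrays, 7424 probes were detected with FGF2 and 7599 in control, and the lowest detected signals were 184.9 and 194.6. The fibroblast label was checked on 5 markers with a named probe. All 5 were detected on both arrays, and 4 of them (Col1a1, Col1a2, Col3a1 and Fbln1) were at least 2-fold lower with FGF2. Of 5 leukocyte markers 2 were detected, with a summed signal over the 5 of 884.1 with FGF2 and 942.3 in control. Neither the 1 endothelial marker nor any of 3 markers of pluripotent cells was detected. For 3 epithelial markers, of which 2 were detected, the sums were 589 with FGF2 and 530.9 in control. Krt18 was detected with FGF2 only, at 268.5 with FGF2 and 191.1 in control, at least 1.52-fold higher. Cldn4, detected on both arrays, had 187 with FGF2 and 202.4 in control.

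Most of the detected ubiquitin-proteasome transcripts differed little between the arrays. Of the 50 detected genes, 2 were at least 1.5-fold higher with FGF2, Psmb5 and Psmd2, and 0 were at least 1.5-fold lower. Across all 3005 named detected genes, 5.29% were at least 1.5-fold higher and 6.79% at least 1.5-fold lower. At 2-fold or more, there was no member in either direction, against 1.46% higher and 2.6% lower in all. At 1.2-fold, 12 members (24%) were higher (background 19.2%) and 3 (6%) were lower (background 16.3%). The other 35 members (70%) lay within 1.2-fold, as did 64.5% of all named detected genes. The share of higher members is near the background, and the share of lower members is under it, a difference that was not tested. The symbol rule itself lowers the share of lower members. It leaves out Psmb10 (1.99-fold lower) and Psmb8 (at least 1.58-fold lower), which the background includes. The members' log2 ratios, FGF2 over control after quantile normalization, ran from −0.54 to 0.62 with a median of 0.11, beside a median of 0.028 over all. In such cultures, fewer cells of a type and less RNA per cell cannot be told apart.

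**Figure D1:**
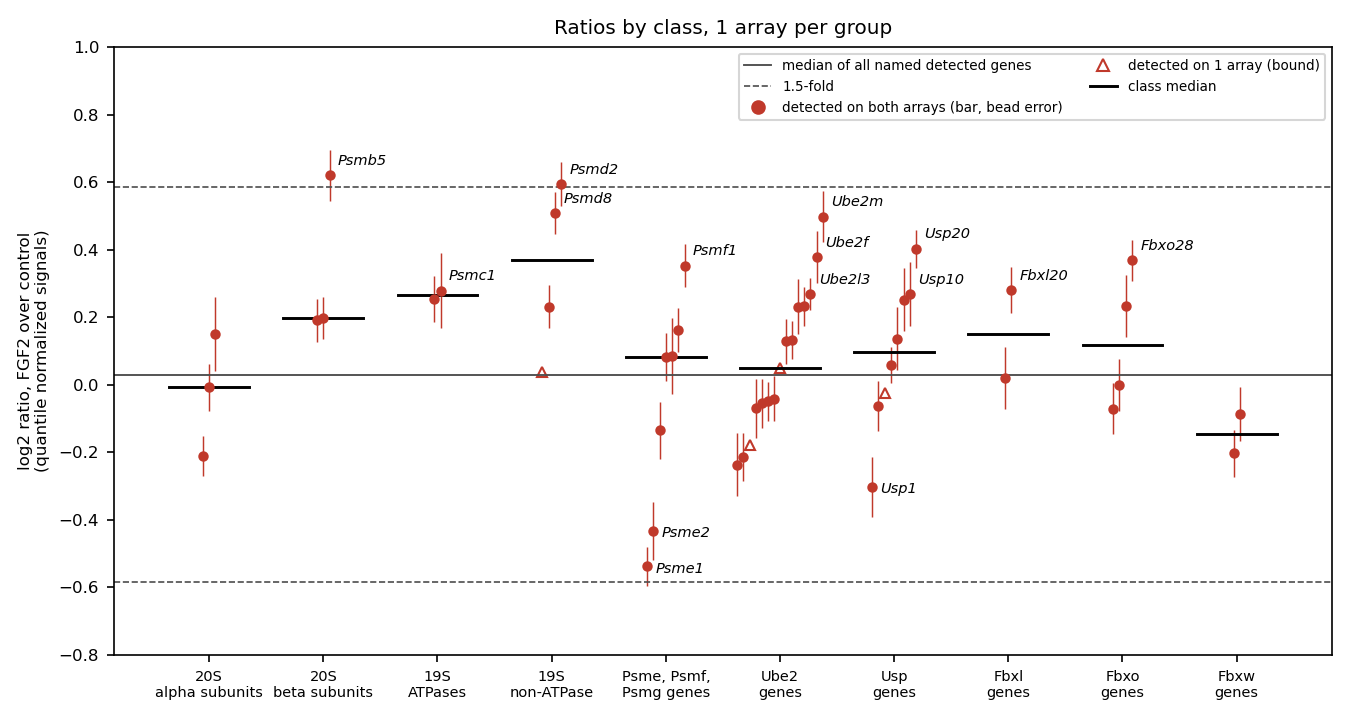
Log2 ratios of quantile normalized signals, FGF2 over control, for the 50 detected genes by class; points are genes with their bead error, open triangles are bounds for genes detected on 1 array, thick lines are class medians, the thin line is the median of all named detected genes and dashed lines mark 1.5-fold. Psmb5 and Psmd2 lie above the upper dashed line, Psme1 and Psme2 are the lowest points, and the 2 Fbxw genes lie below the median of all genes.

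These values depended on the processing. Without scaling, the median of all named detected genes was −0.14. There 0 members were at least 1.5-fold higher and 2 lower, against 2.70% and 11.6% of all. In the authors' value table, which differs both by a subtracted background and by a rescaling, that median was 0.13. Of 46 members in it, 5 were higher and 1 lower. Of all 2639 named genes detected on both arrays, that table had 359 (13.6%) higher and 257 (9.74%) lower. For the same genes, quantile normalization gave fewer in both directions, 146 higher and 170 lower. Quantile normalization and the 9 alternative ways of processing were compared. Of the members, 28 lay above the median of all genes in every one that gave them a value, 16 below it likewise, and 6 on both sides. Psmd11, Ube2d3, Ube2g2 and Usp40, each detected on 1 array, had a value in only 8 of the 10 settings. These ways are not independent checks, as all use the same arrays. Relative to the median of all genes, median scaling gives the same values as no scaling. Settings that alter only the detection rule or the floor on low signals keep the ratio of nearly every member. The folds and ratios below are those of quantile normalized signals, with a log2 ratio of 0 as no difference. For many members the position relative to the median of all genes is given too.

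Genes of the 20S core and the 19S cap were mostly a little higher than the median gene. Of 15 with a named probe 12 were detected, and 10 of these had a ratio above 0, against 55.1% of all named detected genes. Their median log2 ratio was 0.21, or 0.19 above the median of all genes. This distance was between 0.15 and 0.24 over the ways of processing.

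Psmb5, which encodes the beta subunit with the chymotrypsin-like cutting site, had a signal of 1005.3 with FGF2 and 776.4 in control. It was 1.54-fold higher with FGF2 (log2 ratio 0.62 ± 0.076). It lay at percentile 95.3 of all named detected genes, so it stands at the edge of the main spread of genes rather than outside it. The other detected beta subunits differed less. Psmb3, a beta subunit without a cutting site, had signals of 2902.1 with FGF2 and 2901.7 in control (0.20 ± 0.063). Psmb6, the subunit with the caspase-like site, had 3361.6 with FGF2 and 3398.2 in control (0.19 ± 0.064). Both were nearly level as deposited, and their positive ratios come with the scaling, although both stayed above the median of all genes in every way of processing.

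The alpha subunits, which form the outer rings and gate the barrel, did not share a direction. Psma2 had signals of 6957.3 with FGF2 and 6988.3 in control, a log2 ratio of 0.15 ± 0.11. Psma3 had 5156.2 with FGF2 and 5731.9 in control (−0.0071 ± 0.070), a ratio on either side of the median of all genes depending on the processing. Psma4 had 1499.2 with FGF2 and 2072.4 in control, which is 1.16-fold lower (−0.21 ± 0.059), and it lay below the median of all genes under each way of processing. The fourth alpha subunit with a named probe, Psma5, was not well above background, at 135.5 with FGF2 and 150.9 in control. Core subunits of 1 complex thus spanned log2 ratios from −0.21 to 0.62.

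In the cap, the ATPase genes Psmc1 and Psmc3 had close ratios, of 0.28 ± 0.11 and 0.25 ± 0.067. Their signals were 523.2 with FGF2 and 510.8 in control for Psmc1, and 1307.5 with FGF2 and 1300.4 in control for Psmc3. Both lay above the median gene in every way of processing. A further ATPase gene, Psmc6, was not well above background.

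Among the non-ATPase subunits, Psmd2 and Psmd8 had the higher ratios. The Psmd2 product is the large scaffold that binds ubiquitin-like domains, and its brightest probe had signals of 1110.6 with FGF2 and 878.2 in control, 1.51-fold higher (0.59 ± 0.065). Its dimmer probe, at 225.8 with FGF2 and 235 in control, gave only 0.098, so the size of the Psmd2 difference rests on 1 probe, and with the mean of both probes it was 0.35, under 1.5-fold. Psmd8, a subunit of the lid, had 579.8 with FGF2 and 484.9 in control (0.51 ± 0.063, 1.42-fold higher). It passed 1.5-fold only in the authors' value table, at 1.64-fold. Psmd3, another lid subunit, had 4465.9 with FGF2 and 4158.8 in control (0.23 ± 0.064). Psmd11, also of the lid, was detected with FGF2 only, at signals of 186.3 and 187.6, a bound of at least 1.03-fold higher.

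That gene and Psmd9, a chaperone of cap assembly, lie on either side of the detection threshold. Psmd11 had scores of 0.992 with FGF2 and 0.982 in control, and Psmd9, which was left out, had 0.976 and 0.987. The signals of Psmd9 were 179.7 with FGF2 and 191.1 in control, so neither gene tells the groups apart.

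**Figure D2:**
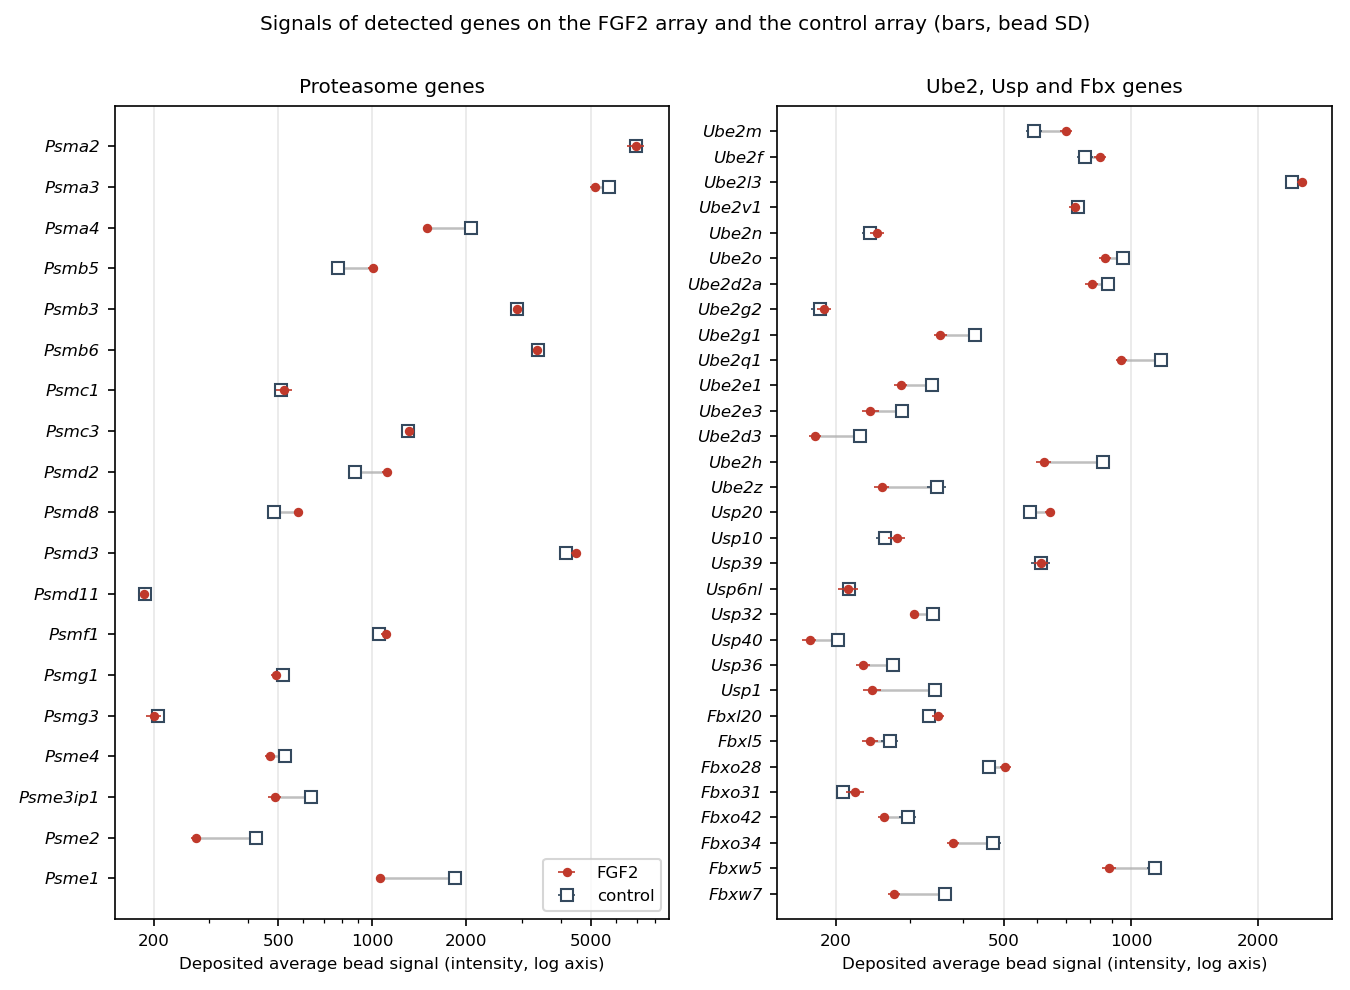
Deposited average bead signals of the 50 detected genes on a log axis, with the FGF2 array as filled circles, the control array as open squares and bead standard deviations as bars; proteasome genes are on the left, Ube2, Usp and Fbx genes on the right. Psmb5, Psmd2 and Psmd8 have the FGF2 point to the right of control, while Psme1 and Psme2 have it to the left by the widest gaps among proteasome genes.

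The PA28 activator genes stood at the other end. Psme1, which encodes PA28 alpha, had signals of 1058.8 with FGF2 and 1837.3 in control, 1.45-fold lower (−0.54 ± 0.058). Its second probe, with 697.6 with FGF2 and 1249.7 in control, gave −0.58, close to the first. Psme2, which encodes PA28 beta, had 272.3 with FGF2 and 424.7 in control, 1.35-fold lower (−0.43 ± 0.085). Both genes were below the median of all genes in every way of processing. Their ratios spanned −0.80 to −0.52 for Psme1 and −0.70 to −0.40 for Psme2. Psme1 passed 1.5-fold without scaling and with loess, and Psme2 in the authors' value table and without scaling.

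The 2 inducible catalytic subunits that the symbol rule leaves out had larger reductions than PA28. Psmb10 had signals of 422.1 with FGF2 and 998.9 in control, 1.99-fold lower (−0.99 ± 0.070), and Psmb8, detected in control only, had 178.8 and 323.7, at least 1.58-fold lower. These 4 genes of the interferon-inducible proteasome were all below the median gene, while 10 of the 12 core and cap genes were above it. The difference between the 2 sets was not tested, as there is 1 array per group. Leukocytes also express these genes strongly, and of the 2 detected leukocyte markers Lyz2 had 220.2 with FGF2 and 374.8 in control, while Cd53 had 318.7 with FGF2 and 176.7 in control. Their part in the result was not tested.

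The other proteasome regulators and assembly factors lay between these ends. Psmf1, whose product PI31 binds the core, had 1108.7 with FGF2 and 1046.5 in control (0.35 ± 0.064, 1.28-fold higher), and it was above the median gene in every way of processing. Psmg1 and Psmg3, chaperones that assemble the alpha ring, were at 0.16 ± 0.066 and 0.084 ± 0.11. Psme4, which encodes the activator PA200, was at 0.083 ± 0.071. Psme3ip1 fits the symbol rule, but its product is a binding partner of the activator encoded by Psme3 and not a subunit. It had 488 with FGF2 and 636.7 in control (−0.14 ± 0.084), below the median gene in every way of processing. Without it the median of all proteasome genes was 0.18, against 0.16 with it, and without Psme1 and Psme2 it was 0.19.

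Promoter sequences from RefSeq (GRCm38.p6) were searched for the core of the antioxidant response element, TGACNNNGC, the letters bound by Nfe2l1 (NRF1) and Nfe2l2 with small Maf proteins. Nfe2l1 is known to drive proteasome genes when the proteasome is inhibited. The search covered the 250 bases before each start site on both strands. The letters were found for 2 of 10 detected core and cap genes with a promoter entry, Psmb5 and Psmb6, in the same orientation as the gene in both, and in 10.2% of all 32851 windows. The letters were not particular to core and cap genes. They were also found for 2 of 6 detected Usp genes, 2 of 7 F-box genes and 1 of 11 E2 genes with a promoter entry. Of 7 Psme, Psmf and Psmg genes, 0 had them. The windows of Psmb5 and Psmb6 are shown because they belong to the beta subunit with the highest ratio and to another catalytic beta subunit. The matching letters are in capitals.
Psmb5, chr14:54617996-54618245, minus strand: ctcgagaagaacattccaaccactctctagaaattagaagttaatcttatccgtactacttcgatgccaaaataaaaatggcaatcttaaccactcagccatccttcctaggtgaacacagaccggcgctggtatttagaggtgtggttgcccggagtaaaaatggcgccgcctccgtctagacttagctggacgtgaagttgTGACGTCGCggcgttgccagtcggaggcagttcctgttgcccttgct
Psmb6, chr11:70525107-70525356, plus strand: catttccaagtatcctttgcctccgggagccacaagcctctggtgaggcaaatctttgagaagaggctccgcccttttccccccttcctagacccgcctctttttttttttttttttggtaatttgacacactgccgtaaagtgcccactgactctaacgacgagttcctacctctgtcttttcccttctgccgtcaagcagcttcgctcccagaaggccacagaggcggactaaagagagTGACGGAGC
The match starts 47 bases before the start site of Psmb5 and 9 bases before that of Psmb6. The log2 ratios of these genes were 0.62 and 0.19, and a link between the letters and the ratio was not tested. The CCAAT box, searched in the same way and with no overlap with the first motif in these promoters, was found for 4 of the 10 genes (Psma2, Psma3, Psmb3 and Psmc1), and in 33.8% of all windows. Neither Psmd2 nor Psmd8 held either set of letters. A match is a description of the sequence and does not show binding. Nfe2l1 itself had signals of 2071.1 with FGF2 and 2004.7 in control (0.28 ± 0.068).

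The E2 conjugating enzymes had no common direction, and their split was near that of all genes. Of 22 with a named probe 15 were detected, with a median of 0.049. Of these, 8 had a ratio above 0, against 55.1% of all named detected genes, and 7 below. None reached 1.5-fold (background 5.29% higher and 6.79% lower), a difference that was not tested. The median was 0.13 over the 13 genes detected on both arrays, and also without the floor.

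The highest ratios belonged to Ube2m and Ube2f, which encode E2 enzymes for NEDD8 and not for ubiquitin. Ube2m had signals of 701.4 with FGF2 and 589.7 in control (0.50 ± 0.076, 1.41-fold higher), and it reached 1.60-fold in the authors' value table. Ube2f had 844.8 with FGF2 and 777.5 in control (0.38 ± 0.078, 1.30-fold higher). Of the 15 detected E2 genes, 3 were at least 1.2-fold higher, these 2 and Ube2l3. That share is near the 19.2% of all named detected genes. Nae1, a subunit of the NEDD8 E1, was at 0.23 ± 0.068, and its position above the median gene held in every way of processing.

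Ube2l3, which serves HECT and RBR ligases, had 2536.7 with FGF2 and 2400.2 in control (0.27 ± 0.048). Ube2v1 and Ube2n, partners that build lysine-63-linked chains, had the same ratio of 0.23, with bead errors of 0.058 and 0.081. Ube2n was dim, at 250.1 with FGF2 and 240.4 in control. Ube2o, a large enzyme that also acts as a ligase, was at 0.13 ± 0.055.

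The Ube2d and Ube2e enzymes, which work with many ligases, were near or below the median gene. Ube2d2a was at 0.13 ± 0.066 on its brighter probe and −0.058 on the dimmer. Ube2d3 was detected in control only, with 178.5 with FGF2 and 227.5 in control, at least 1.13-fold lower. Ube2e1 was at −0.055 ± 0.072 (second probe 0.085) and Ube2e3 at −0.070 ± 0.087. Ube2g1 was at −0.041 ± 0.066 on 1 probe and 0.20 on the other. Ube2g2, an E2 of endoplasmic reticulum degradation, was detected with FGF2 only, at least 1.03-fold higher. Of the 6 members with 2 detected probes, 4 had probes of opposite sign or at 0, and the median gap between probes was 0.16. Ratios of that size therefore do not give these genes a direction.

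The lowest E2 ratios were those of Ube2z and Ube2h. Ube2z, which is charged by the E1 Uba6, had 256.8 with FGF2 and 346.6 in control, 1.18-fold lower (−0.24 ± 0.094). Ube2h had 621.3 with FGF2 and 857.4 in control, 1.16-fold lower (−0.21 ± 0.071). Both stayed below the median of all genes in every way of processing. Ube2q1 was at −0.049 ± 0.058. The 7 undetected E2 genes included Ube2c, the mitotic partner of the anaphase-promoting complex, at 121.5 with FGF2 and 132.9 in control. Of 5 proliferation markers 3 had a named probe, and all 3 were detected on both arrays: Ccnb1 had 317.4 with FGF2 and 385.6 in control, Mki67 had 223.3 with FGF2 and 248.1 in control, and Tk1 had 196.2 with FGF2 and 249.1 in control. The undetected E2 genes also included Ube2l6, the E2 for the interferon-induced modifier ISG15, at 115.4 with FGF2 and 172.1 in control, both signals not well above background.

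Of 23 Usp genes with a named probe 8 were detected, with a median of 0.098. None reached 1.5-fold (background 5.29% higher and 6.79% lower), a difference that was not tested. Usp20, a protease known to act on hypoxia-inducible factor 1 alpha, was the highest, with 642.2 with FGF2 and 577.3 in control (0.40 ± 0.055, 1.32-fold higher). Usp1, which removes ubiquitin from FANCD2 and PCNA during DNA repair, was the lowest, with 243.9 with FGF2 and 343 in control, 1.23-fold lower (−0.30 ± 0.089). The opposite positions of Usp20 and Usp1 about the median gene held in every way of processing.

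Between them, Usp10 was at 0.27 ± 0.095, and Usp39, a spliceosome component that lacks protease activity, was at 0.25 ± 0.093. The signals of Usp39 were 612.1 with FGF2 and 611.4 in control, level as deposited. Usp32 was at 0.059 ± 0.053 and the nucleolar Usp36 at −0.063 ± 0.074. Usp40 was detected in control only, with 173.1 with FGF2 and 202.2 in control. Its ratio of −0.025 has no settled direction, as it was 0.11 with median scaling and lay on both sides of the median gene over the ways of processing. Usp6nl fits the symbol rule but encodes a GTPase-activating protein for Rab proteins, not a protease. It was at 0.14 ± 0.094, and without it the Usp median was 0.059. The other 15 Usp genes, Usp9x among them, had signals between 99.8 and 178.2 with FGF2 and between 112 and 182 in control.

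F-box genes were the least often detected, 8 of 24, and had a median of 0.011, at the median of all genes. None reached 1.5-fold (background 5.29% higher and 6.79% lower), a difference that was not tested. Fbxo28 was the highest, at 503.4 with FGF2 and 461.4 in control (0.37 ± 0.060, 1.29-fold higher). Fbxl20 had 348.8 with FGF2 and 332.1 in control (0.28 ± 0.068). Fbxo31, which takes part in cyclin D1 degradation after DNA damage, had 222.4 with FGF2 and 208.3 in control (0.23 ± 0.092), and it reached 1.57-fold in the authors' background-subtracted table.

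The detected Fbxw genes were both below the median gene. Fbxw7, which recruits cyclin E, MYC and NOTCH to the SCF ligase, had 274.7 with FGF2 and 362.1 in control, 1.15-fold lower (−0.20 ± 0.069). Fbxw5 had 887.3 with FGF2 and 1139.4 in control (−0.088 ± 0.080). Fbxl5, the iron-sensing F-box protein that degrades IRP2, had 241 with FGF2 and 268.1 in control (0.021 ± 0.092). Fbxo42 was at 0.00 ± 0.077 on its brighter probe and −0.015 on its dimmer. Fbxo34 had 379.2 with FGF2 and 471.8 in control (−0.071 ± 0.075). The 16 undetected F-box genes had signals between 100.1 and 169.8 with FGF2 and between 113.9 and 183.6 in control.

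**Figure D3:**
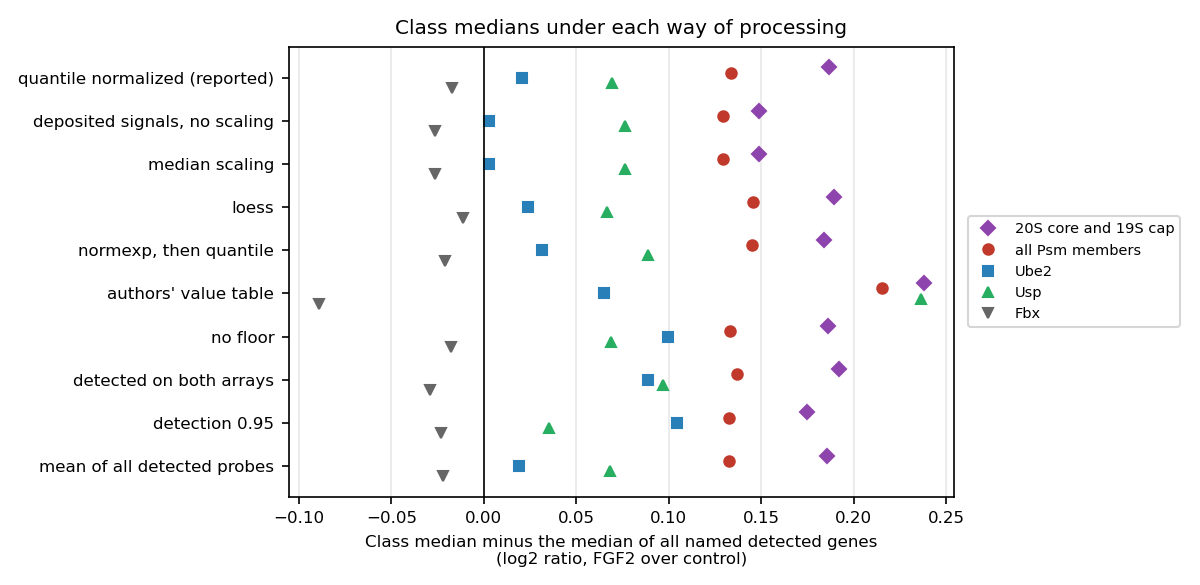
Class medians of the log2 ratio, FGF2 over control, less the median of all named detected genes under the same processing, for quantile normalized signals and 9 alternatives. The core and cap genes lie right of 0 in each row, between 0.15 and 0.24, the F-box median lies left of 0 in each row, and the Usp median is farthest from its other values in the authors' value table.

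Other genes of the pathway, in 7 lists of 99 genes, gave a similar picture. Of 52 with a named probe 39 were detected, with a median of 0.030. At 1.5-fold, 1 was higher and 2 were lower with FGF2 (background 5.29% and 6.79%). None of 6 detected genes for ubiquitin and ubiquitin-like precursors reached 1.2-fold (background 19.2% higher and 16.3% lower). Ubb, a polyubiquitin gene, had 26233.1 with FGF2 and 32087.5 in control (0.079 ± 0.075). Rps27a, which encodes ubiquitin fused to a ribosomal protein, was at −0.14 ± 0.069.

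Both lower genes belong to the conjugation of ISG15 or to interferon-induced signalling. Uba7, the E1 for ISG15, had 340.8 with FGF2 and 800.9 in control, 2.0-fold lower (−1.003 ± 0.086). Trim25, an interferon-induced ligase that can attach ISG15, had 1083.3 with FGF2 and 2389.7 in control, 1.87-fold lower (−0.90 ± 0.058). Over the ways of processing, Uba7 lay between −1.32 and −0.99 and Trim25 between −1.14 and −0.89. In contrast, Sae1, a subunit of the SUMO E1, was at 0.28 ± 0.057. The E1 list's median of 0.23 rests on 3 detected genes, of which Uba7 is the one that departs.

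The higher gene was Rnf11, a RING protein that works with NEDD4-family ligases, with 1007.6 with FGF2 and 690.7 in control, 1.74-fold higher (0.80 ± 0.073). Nedd4l, a ligase of that family, had 701 with FGF2 and 559.4 in control (0.57 ± 0.064), just under 1.5-fold. Cdc34, the E2 that extends chains on SCF substrates, had 712.7 with FGF2 and 577.3 in control (0.55 ± 0.058, 1.47-fold higher). These 3 genes were above the median of all genes in every way of processing. Of the other cullin-RING parts, Cul3 was at 0.18 ± 0.068 and the RING subunit Rbx1 at −0.11 ± 0.079.

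Proteasome accessory and substrate-delivery genes had a median of 0.16 over 8 detected genes. Of these, 7 were above 0 (background 55.1%) and 3 at least 1.2-fold higher (Adrm1, Ecpas and Nfe2l1, background 19.2%). Adrm1, a ubiquitin receptor of the cap, was at 0.31 ± 0.091, and Ecpas, which binds core and cap together, at 0.31 ± 0.072. Vcp, the ATPase that extracts ubiquitinated proteins, had 4118.9 with FGF2 and 4124.1 in control (0.13 ± 0.065). Txnl1, a thioredoxin that associates with the cap, was the lowest at −0.24 ± 0.061. In the COP9 signalosome, which removes NEDD8 from cullins, 6 genes had a median of 0.0048, from −0.30 ± 0.059 for Cops4 to 0.26 ± 0.053 for Gps1.

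**Figure D4:**
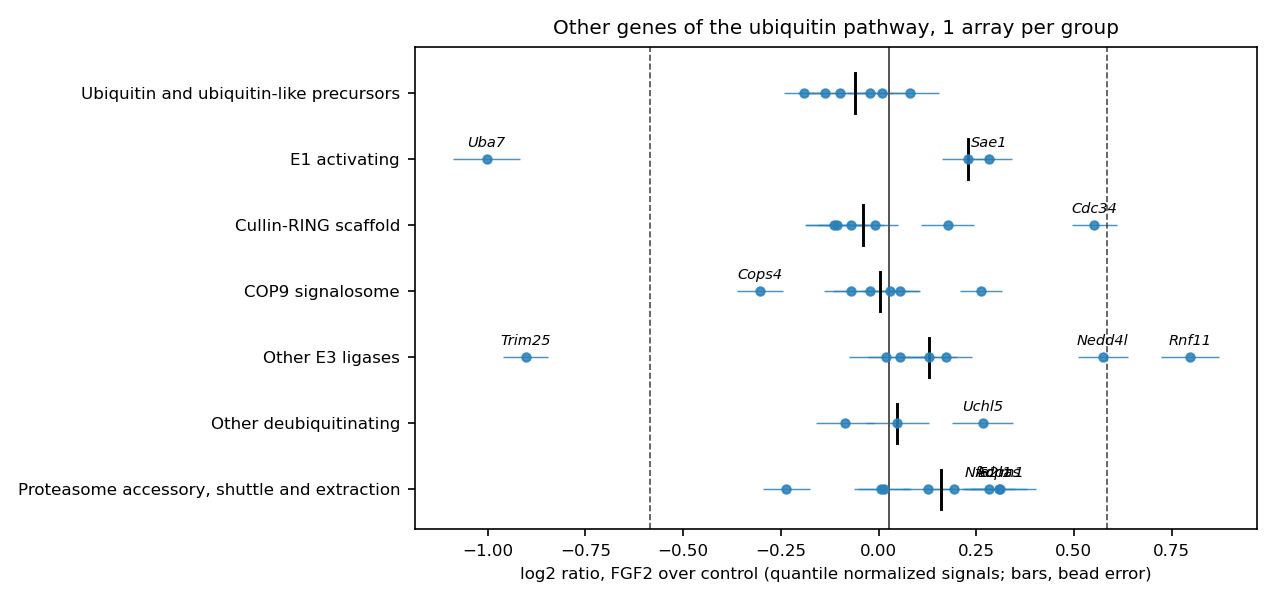
Log2 ratios of quantile normalized signals, FGF2 over control, for the 39 detected genes of the other ubiquitin pathway lists; points are genes with their bead error, short vertical lines are list medians, the thin line is the median of all named detected genes and dashed lines mark 1.5-fold. Uba7 and Trim25 lie left of the lower dashed line and Rnf11 right of the upper one.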

How the data were processed

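Total RNA of 2 fibroblast cultures was hybridised to 1 single-colour bead array each, and the submitters' processing notes name BeadStudio (version 1.0). The deposited per-sample tables hold an average bead intensity and a bead standard deviation for each of 24044 probes, and a detection score, which per the file headers is called only Detection and is a fraction between 0 and 1. The sources used here do not say whether that program normalized the intensities, or how many beads a probe had. The bead standard deviation may thus be a spread or an error of the mean, and was taken as deposited. The authors' value table holds a second intensity per probe, background-subtracted and rescaled by a method that these sources do not give.

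Identifiers with 1 or 2 leading zeros before a number were read as mouse gene numbers and named through the RefSeq table for GRCm38.p6. Of 9523 such identifiers, 8884 (93.3%) held a listed number. The tables give no probe annotation, so every gene name rests on that reading. The 90th percentiles of the signals were 548.4 on the FGF2 array and 649.8 on the control array, so the arrays were quantile normalized. Each array was floored at its lowest normalized signal of a detected probe (191.7 for FGF2 and 188.45 for control) before taking log2. The brightest probe, by its mean over both arrays, stood for its gene, and a gene counted if that probe had a score of 0.99 or more on at least 1 array. A gene detected on 1 array has a bound: the detected side is set against the other side's own value or the floor, whichever is higher. Background is not subtracted, which understates the fold of dim genes. With 1 array per group there is no p-value, and genes are counted at 1.5-fold and 2-fold. Errors given as ± are bead errors of both arrays combined on the log2 scale. They leave out variation between cultures, and precision is limited by having 1 array a group.

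Every detected member could be named. Those at 1.5-fold or more, and the highest and lowest ratio of each class, are described with their signals. The members, the pathway lists and the settings were chosen with earlier results of these data known, and counts at 1.2-fold were added after the data were seen. Tools were Python 3.11.15, pandas 2.3.3, numpy 2.4.6, statsmodels 0.14.6 (loess, span 0.3) and limma 3.58.1 (normexp, offset 50). The ratio code was tested on simulated data. A few genes of the pathway are not reported here by name.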

Additional observations from a re-analysis of the deposited data

How the results depend on the processing

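Quantile normalized signals were set against 9 alternatives. Members at least 1.5-fold higher numbered 2, but 0 without scaling, 1 (Psmb5) with median scaling, 0 with loess, 5 in the authors' value table (Psmb5, Psmd2, Psmd8, Ube2m and Fbxo31), and 1 (Psmb5) with the mean of all detected probes of a gene. Members at least 1.5-fold lower numbered 0, but 2 without scaling (Psme1 and Psme2), 1 with loess (Psme1) and 1 in the authors' table (Psme2). No setting gave a member at 2-fold. The medians of the proteasome, Ube2, Usp and Fbx genes were −0.016, −0.14, −0.069 and −0.17 without scaling, where the median of all named detected genes was −0.14. In the authors' table those of the proteasome, Ube2 and Usp genes were 0.34, 0.19 and 0.36, beside 0.13 for all. The Usp median was 0.17 with median scaling. The Ube2 median was 0.13 without the floor, with detection on both arrays and at a detection score of 0.95. Less the median of all genes, the proteasome median lay between 0.13 and 0.22 over the 10 settings. Of 442 member values under the alternatives, 342 moved by less than their bead error, and none of the members at 1.5-fold changed sign. The pooled count hides differences between settings. Without scaling all 50 values moved by the bead error or more. Of the authors' values, 33 moved that far and 13 did not. With median scaling 9 did, with loess 3, with the mean of probes 3 and with normexp 0. Detection on both arrays (0 moved), no floor (1) and a detection score of 0.95 (1) leave most ratios unchanged by design. Of all 3005 named detected genes, 159 (5.29%) were 1.5-fold higher and 204 (6.79%) lower, against 81 (2.70%) and 348 (11.6%) without scaling. The shares were 5.66% and 6.29% with median scaling, 4.69% and 7.55% with loess, and 4.99% and 6.65% with the mean of probes. The authors' table covers 2639 genes detected on both arrays, with 359 (13.6%) higher and 257 (9.74%) lower. For those genes, quantile normalization gave 146 and 170.

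No paired analysis was possible because each group has 1 array. Leaving out an array was not possible for the same reason. For genes near the lowest detected signals, such as Psmd11, Ube2g2, Usp40 and Psmg3, any difference is understated where background is not subtracted. The log2 ratios of these genes took both signs over the settings, so the size and the sign are both unsettled. The cause of the differences between settings was not tested beyond the background and scale that define them.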
